A study of Mus musculus with 4 samples.

Results

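The enzymes that make prostaglandins and leukotrienes from arachidonic acid, and 1 enzyme that inactivates prostaglandins, were examined in tissue dissected from around the femoral artery of mice. The 10 genes were taken by symbol, and 9 of them were analysed among the 12661 genes of the table: *Ptgs1*, *Ptgs2*, *Ptges*, *Ptgis*, *Alox5*, *Alox5ap*, *Lta4h*, *Ltc4s* and *Hpgd*. *Ptgds* was not analysed here. RNA-seq was performed on 2 libraries taken 48 h after wire injury of the artery and on 2 libraries taken 48 h after sham operation, to ask which genes of the tissue respond to the injury. All 4 came from wild type C57BL/6 females, ovariectomized and labelled as 11-week-old, so the sham-operated group shares the ovariectomy. The injury was made with a 0.38 mm spring wire. The labels name the tissue perivascular adipose tissue (PVAT), and the study describes the dissected tissue as mainly, not wholly, PVAT. Whether each library is 1 animal or a pool is not given in the sources used here, and p-values measure only the spread between these libraries.

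Arachidonic acid is cut from membrane lipids by phospholipases. The cyclooxygenases COX-1 (*Ptgs1*) and COX-2 (*Ptgs2*) turn it into an unstable intermediate, prostaglandin H2, which terminal synthases convert to prostaglandin E2, prostacyclin, prostaglandin D2 or thromboxane. In the other branch 5-lipoxygenase (*Alox5*), helped by the membrane protein FLAP (*Alox5ap*), makes leukotriene A4, from which the attractant of neutrophils leukotriene B4 or the cysteinyl leukotrienes are made. COX-1 is found in many resting cells and in platelets, COX-2 is induced by inflammatory stimuli, prostacyclin is the main prostanoid of the vessel wall, and 5-lipoxygenase and FLAP are known from cells of the myeloid line.

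The values are signed, and those of most genes lie around 0. How they were centred, on which samples and on what scale is not given in the sources used here. They do not average 0 over these 4 libraries in each gene, so what 0 stands for is unknown. For this reason differences are in deposited units and are not fold changes, and the level of 1 gene cannot be compared with that of another. The read depth behind them is unknown. A gene was called when its adjusted p-value was under 0.05 (limma with Benjamini-Hochberg adjustment over all 12661 genes). Of all genes, 7.43% were called, 3.76% higher and 3.67% lower after injury. Of the 9 genes, 2 were called: *Alox5ap* was higher and *Ptgs1* was lower after injury. The sham and injury values did not overlap in 4 of the 9 genes, against 61.9% of all genes. *Alox5ap* was the 1 gene with both injury libraries above (31.6% of all genes), and *Ptgs1*, *Ptgis* and *Lta4h* were the 3 with both below (30.3% of all genes). The median difference of the 9 genes was -0.01 deposited units, beside 0.01 over all genes, and the single differences ran from -1.63 to 1.73.

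**Figure D1:**
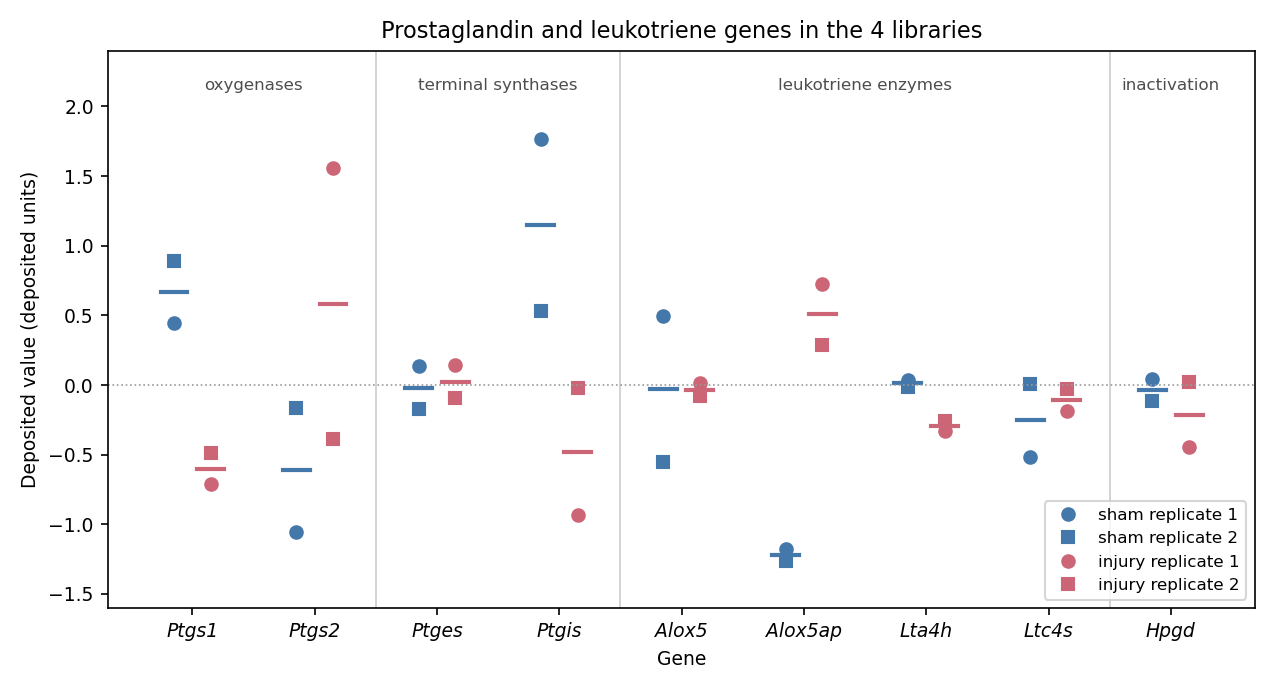
Deposited value (vertical axis, deposited units) of each of the 9 genes in each library. Circles are replicate 1 and squares replicate 2, blue is sham and red is injury, and each bar is the mean of 2 libraries. *Alox5ap* separates upwards and *Ptgs1* and *Ptgis* downwards after injury, while 1 injury library of *Ptgs2* stands at 1.56 and the other at -0.39.

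The stretches before the transcription start of the cyclooxygenase genes are shown because COX-1 and COX-2 carry out the same reaction, and *Ptgs1* was called while the injury libraries of *Ptgs2* lay far apart. Both are from RefSeq (GRCm38.p6) and hold the 250 bases before the start, and 8 of the 10 genes had an entry. *Ptgs1* and *Ptgs2* both lie on the plus strand, *Ptgs1* at chr2:36230176-36230425 and *Ptgs2* at chr1:150099781-150100030, and capitals mark the words found by the search.
Ptgs1: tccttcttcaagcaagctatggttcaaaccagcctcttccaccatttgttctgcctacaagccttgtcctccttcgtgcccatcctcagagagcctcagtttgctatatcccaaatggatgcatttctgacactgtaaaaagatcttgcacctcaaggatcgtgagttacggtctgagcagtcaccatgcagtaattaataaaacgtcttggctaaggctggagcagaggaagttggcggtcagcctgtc
Ptgs2: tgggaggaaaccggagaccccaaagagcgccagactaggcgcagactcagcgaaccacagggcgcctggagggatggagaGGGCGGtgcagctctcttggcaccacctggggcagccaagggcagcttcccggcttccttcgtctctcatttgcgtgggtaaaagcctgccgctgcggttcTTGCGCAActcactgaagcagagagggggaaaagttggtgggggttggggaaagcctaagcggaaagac

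The words searched on both strands, from 250 bases before to 50 bases after the start, were TATAAA (the box bound by TBP), CCAAT (bound by NF-Y), TGACGTCA (a cyclic AMP response element), TGANTCA (bound by AP-1), GGGCGG (bound by Sp factors), CACGTG (an E-box) and TTGCNNAA (the core bound by C/EBP factors). No match overlapped another. None of them was in the window of *Ptgs1*. That of *Ptgs2* held GGGCGG from base -170 to -165, TTGCNNAA from base -69 to -62 and CACGTG from base 17 to 22 after the start. In all 32851 windows of this length GGGCGG was found in 35.7%, TTGCNNAA in 10.8% and CACGTG in 7.15%. TATAAA was in 13.6%, CCAAT in 37.4%, TGACGTCA in 1.79% and TGANTCA in 7.81%. The GC content of the bases shown was 48.0% for *Ptgs1* and 61.6% for *Ptgs2*, where the median of all entries was 52.4%. GGGCGG was also in the windows of *Ptges*, *Alox5* and *Hpgd*, TATAAA in that of *Hpgd*, from base 5 to 10 after the start, CCAAT in that of *Lta4h* and TGANTCA in that of *Ptgds*. *Ptgis* and *Alox5ap* had no entry. These matches describe the letters only.

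*Ptgs1* (ENSMUSG00000047250), a protein-coding gene on the plus strand of mm9 chromosome 2 from 36085946 to 36107792, fell after injury. Its values were 0.44 and 0.89 in the sham libraries and -0.71 and -0.49 in the injury libraries. Both injury libraries lay below both sham libraries, and the gap between the groups was wider than either gap within a group. The group means were 0.67 ± 0.31 (SD, n = 2) and -0.60 ± 0.16 (SD, n = 2). The difference was -1.27 with a standard error of 0.20, a 95% confidence interval of -1.77 to -0.77 and an adjusted p of 0.0318 from limma. Only 1.62% of all genes ranked at or below it. The call was lost when a single library was left out in 3 of 4 cases, with differences and limma adjusted p-values of -1.49 and 0.176 without sham replicate 1, -1.04 and 0.124 without sham replicate 2 and -1.15 and 0.0729 without injury replicate 1. In those fits 0, 1 and 284 genes of the whole table were called by limma, and 1960, 2553 and 2995 had an unadjusted p under 0.05.

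*Ptgs2* (ENSMUSG00000032487), on the plus strand of mm9 chromosome 1 from 151947254 to 151955140, was not called. It stood at -1.05 and -0.16 after sham operation and at 1.56 and -0.39 after injury. Injury replicate 2 lay between the sham libraries, and only injury replicate 1 was high. The distance of 1.95 between the injury libraries was the second largest of all 12661 genes, where the median distance was 0.188. The difference of 1.19 (standard error 0.66) had an interval from -0.46 to 2.85 (adjusted p = 0.292 from limma). It was 0.22 when injury replicate 1 was left out. Leaving out injury replicate 2 raised it to 2.17, and in that fit it was called (adjusted p = 0.0243 from limma). The size of the difference in *Ptgs2* thus depended on injury replicate 1.

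As a description chosen after the values were seen, *Ptgs2* minus *Ptgs1* was taken within each library. It was -1.50 and -1.05 in the sham libraries and 2.27 and 0.10 in the injury libraries. Both injury libraries lay above both sham libraries, by a margin that differed between them. Because what 0 stands for in each gene is unknown, the sign of this quantity does not say which cyclooxygenase was the more abundant.

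**Figure D2:**
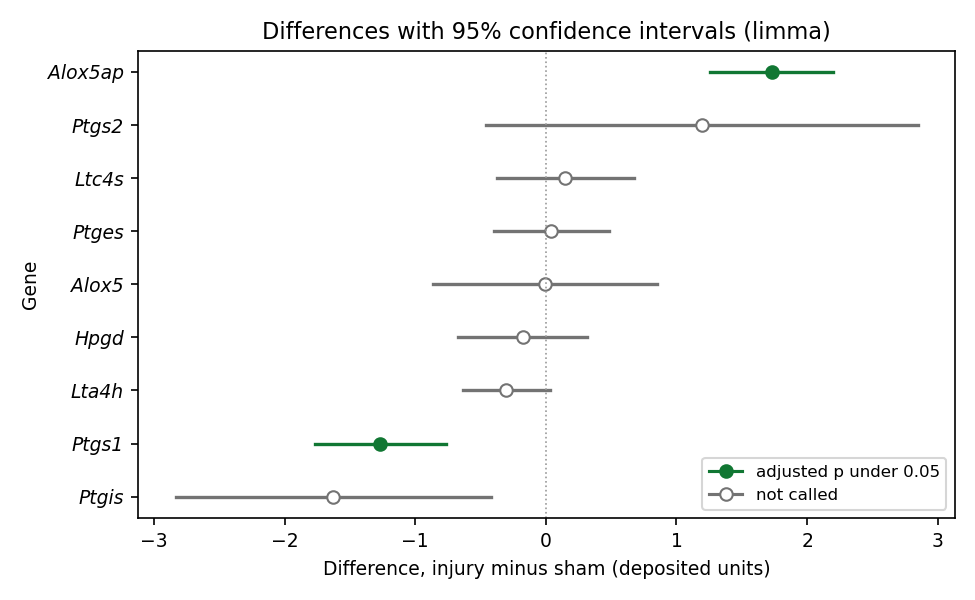
Difference of each gene between injury and sham (horizontal axis, deposited units) with its 95% confidence interval from limma. Filled green symbols are the called genes *Alox5ap* (1.73) and *Ptgs1* (-1.27), and open grey symbols are not called. The interval of *Ptgs2* is the widest of the 9.

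Among the terminal synthases, *Ptgis*, the prostacyclin synthase gene (ENSMUSG00000017969, minus strand of mm9 chromosome 2 from 167017305 to 167066104), was lower in both injury libraries without being called. Its values were 1.77 and 0.53 after sham operation and -0.93 and -0.02 after injury. The sham libraries were 1.23 apart and the injury libraries 0.91 apart. The difference of -1.63 (standard error 0.48, interval -2.84 to -0.42) had an unadjusted p of 0.0171 and an adjusted p of 0.0968 from limma. Leaving out sham replicate 1 brought it to -1.01, and leaving out sham replicate 2 brought it to -2.25. In the annotation 6.08% of its exonic bases also belong to a long noncoding RNA on the other strand. The strand setting of the read counting is not given in the sources used here.

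*Ptges*, the inducible prostaglandin E synthase gene (ENSMUSG00000050737, minus strand of mm9 chromosome 2 from 30744991 to 30785383), was at 0.14 and -0.18 in the sham libraries and at 0.14 and -0.09 in the injury libraries. The groups lay on top of each other. The difference of 0.04 (standard error 0.18) had an interval from -0.40 to 0.48 (adjusted p = 0.893 from limma).

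In the leukotriene branch *Alox5ap*, which encodes FLAP (ENSMUSG00000060063, plus strand of mm9 chromosome 5 from 150076634 to 150099621), rose after injury. It was at -1.18 and -1.26 in the sham libraries and at 0.73 and 0.29 in the injury libraries. The sham libraries were within 0.08 of each other and both injury libraries were far above them. The means were -1.22 ± 0.06 (SD, n = 2) and 0.51 ± 0.31 (SD, n = 2), and the difference of 1.73 (standard error 0.19, interval 1.26 to 2.20) was called (adjusted p = 0.0285 from limma). The call was lost without sham replicate 1 (1.77, adjusted p = 0.176 from limma) and without sham replicate 2 (1.69, adjusted p = 0.113 from limma), the fits in which 0 and 1 genes of the table were called. Without injury replicate 1 or 2 the difference was 1.51 or 1.95 and was called.

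*Alox5* itself (ENSMUSG00000025701, minus strand of mm9 chromosome 6 from 116360095 to 116411196), the 5-lipoxygenase that works with FLAP, was at 0.49 and -0.55 after sham operation. The injury values, 0.01 and -0.08, both lay between these. The difference was -0.01 (standard error 0.34), with an interval from -0.86 to 0.85 (adjusted p = 0.993 from limma). The distance of 1.04 between the sham libraries ranked 101 of all genes, and differences inside that interval were not detectable in *Alox5* with these libraries. *Alox5ap* minus *Alox5* within a library, again a description chosen after the values were seen, was -1.67 and -0.71 in the sham libraries and 0.72 and 0.37 in the injury libraries, with no overlap.

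Neither gene of the enzymes that act after leukotriene A4 was called. *Lta4h*, the hydrolase that makes leukotriene B4 (ENSMUSG00000015889, plus strand of mm9 chromosome 10 from 92916141 to 92947641), was at 0.04 and -0.01 after sham operation and at -0.33 and -0.26 after injury. Its injury libraries were lower, by a difference of -0.30 (standard error 0.13, interval -0.64 to 0.03) that was not called (adjusted p = 0.199 from limma). *Ltc4s*, the synthase of leukotriene C4 (ENSMUSG00000020377, minus strand of mm9 chromosome 11 from 50049971 to 50052118), was at -0.51 and 0.01 in the sham libraries and at -0.18 and -0.03 in the injury libraries. These groups overlapped, and the difference was 0.15 (standard error 0.21, interval -0.38 to 0.67, adjusted p = 0.682 from limma). In the annotation 26.1% of the exonic bases of *Ltc4s* also belong to a long noncoding RNA on the other strand.

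*Hpgd*, the dehydrogenase that starts the breakdown of prostaglandins (ENSMUSG00000031613, plus strand of mm9 chromosome 8 from 58773349 to 58799843), was at 0.05 and -0.12 after sham operation and at -0.45 and 0.02 after injury. Injury replicate 1 was the lowest library, and injury replicate 2 lay between the sham libraries. The difference was -0.18 (standard error 0.20, interval -0.67 to 0.32, adjusted p = 0.595 from limma).

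**Figure D3:**
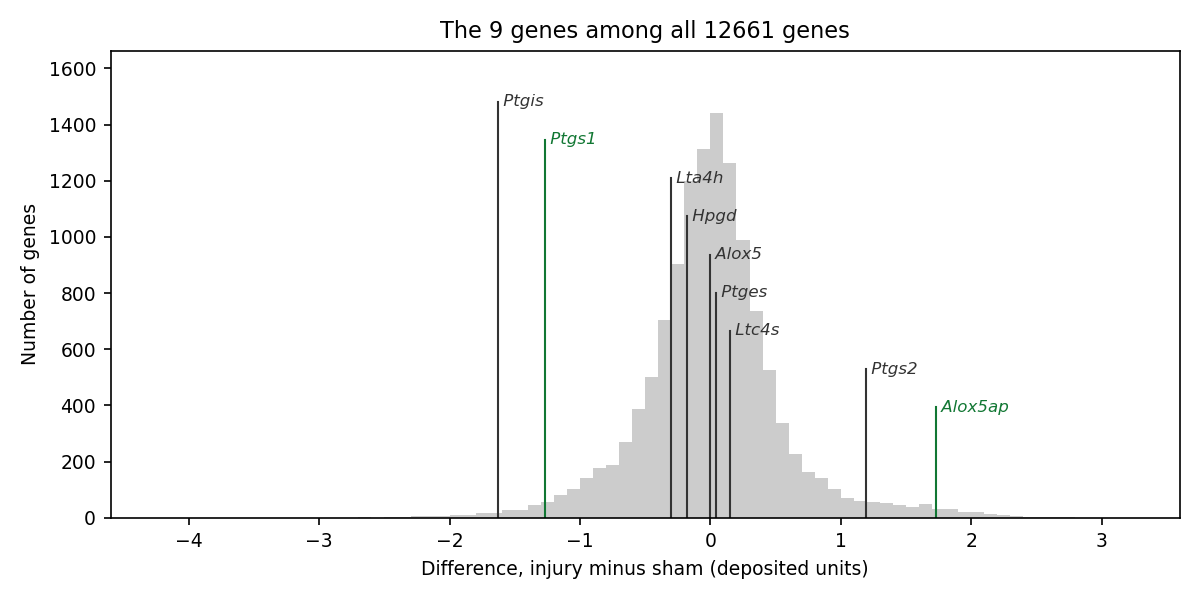
Histogram of the difference between injury and sham (horizontal axis, deposited units) over 12661 genes, with a line at each of the 9 genes, whose heights only separate the names. *Alox5ap* and *Ptgs1*, in green, were called, and 5 of the 9 genes lie between -0.30 and 0.15.

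Of 65 further genes of these pathways, 47 were analysed, and 6 were called, 4 higher and 2 lower after injury, where 7.43% of all genes were called. Their median difference was 0.07, beside 0.01 over all genes. In 18 of the 47 both injury libraries were above the sham libraries and in 11 both were below, where 31.6% and 30.3% of all genes were, so that the share without overlap was that of the background. Among the 8 phospholipase genes analysed 1 was called, *Pla2g7*, which encodes the secreted enzyme that inactivates platelet-activating factor rather than one that supplies arachidonic acid. It stood at -1.43 and -1.10 after sham operation and at 0.74 and 0.13 after injury, a difference of 1.70 (adjusted p = 0.0301 from limma). *Pla2g4a*, the cytosolic phospholipase that releases arachidonic acid, had values of 0.02 and -0.02 and of 0.25 and -0.54, and was not called (difference -0.15, adjusted p = 0.761 from limma).

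Among the 11 other synthases 1 was called, *Tbxas1*, the thromboxane A synthase gene. Its sham values of -1.40 and -1.65 lay below its injury values of 0.30 and 0.08, 1.71 apart on average (standard error 0.17, adjusted p = 0.0285 from limma). *Tbxas1* and *Ptgis* encode synthases that draw on the same intermediate for thromboxane and for prostacyclin. *Hpgds*, the hematopoietic prostaglandin D synthase gene, had a difference of 0.66 that was not called (adjusted p = 0.155 from limma).

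The prostanoid receptor class held 7 analysed genes, among them *Ptgfrn*, the gene of a receptor regulator that is not itself a prostanoid receptor. Of these, *Tbxa2r*, the thromboxane receptor gene, was called lower, with 0.44 and 0.36 after sham operation and -0.30 and -0.76 after injury. At -0.93 the difference was just inside the threshold (adjusted p = 0.0498 from limma). The call was lost after quantile normalization (0.0731), when the columns were scaled to one spread (0.0603), with the replicate block (0.0535) with a robust variance prior (0.0522), and without sham replicate 1 (0.258), sham replicate 2 (0.169) or injury replicate 2 (0.0536), all adjusted p-values from limma. Neither of the 2 leukotriene receptor genes analysed was called by limma, and 1 had an unadjusted p under 0.05, as had 3739 of all 12661 genes. *Ltb4r1*, the receptor gene for leukotriene B4, had the larger difference of the pair, 0.81, with both injury libraries above both sham libraries (adjusted p = 0.105 from limma).

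Transport and inactivation held 3 called genes of 10. *Slco2a1*, the prostaglandin transporter gene, fell from 0.43 and 0.69 to -0.74 and -1.26, a difference of -1.56 (standard error 0.22, adjusted p = 0.0291 from limma). *Cyp4f18*, whose enzyme oxidizes leukotriene B4, rose from -1.41 and -1.68 to 0.77 and -0.01, a difference of 1.92 (adjusted p = 0.0301 from limma). *Dpep2*, a dipeptidase gene of the conversion of leukotriene D4 to E4, rose from -1.92 and -1.27 to 0.29 and 0.04 (difference 1.76, adjusted p = 0.0291 from limma), and its call was also lost without injury replicate 1 (adjusted p = 0.0607 from limma). None of the 5 genes listed with other lipoxygenases and glutathione transferases, among them the epoxide hydrolase gene *Ephx2*, was called by limma. Nor was any of the 4 genes of resolution receptors and annexin. An unadjusted p under 0.05 was reached by 1 of the former and 2 of the latter, and by 3739 of all 12661 genes. In the former the largest difference was that of *Mgst1*, a microsomal glutathione transferase gene (-0.67, adjusted p = 0.111 from limma). In the latter it was that of *Fpr2*, a formyl peptide and lipoxin receptor gene, which stood at -1.31 and -0.92 after sham operation and at 1.71 and 0.17 after injury (2.06, adjusted p = 0.0658 from limma). As in *Ptgs2*, injury replicate 1 was well above injury replicate 2. Without sham replicate 1 or sham replicate 2 the calls of the 47 genes were lost, as nearly all calls over the whole table were. Without injury replicate 2 more of the 47 were called, as were more of all genes. Each of these fits leaves a lone library in 1 group.

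**Figure D4:**
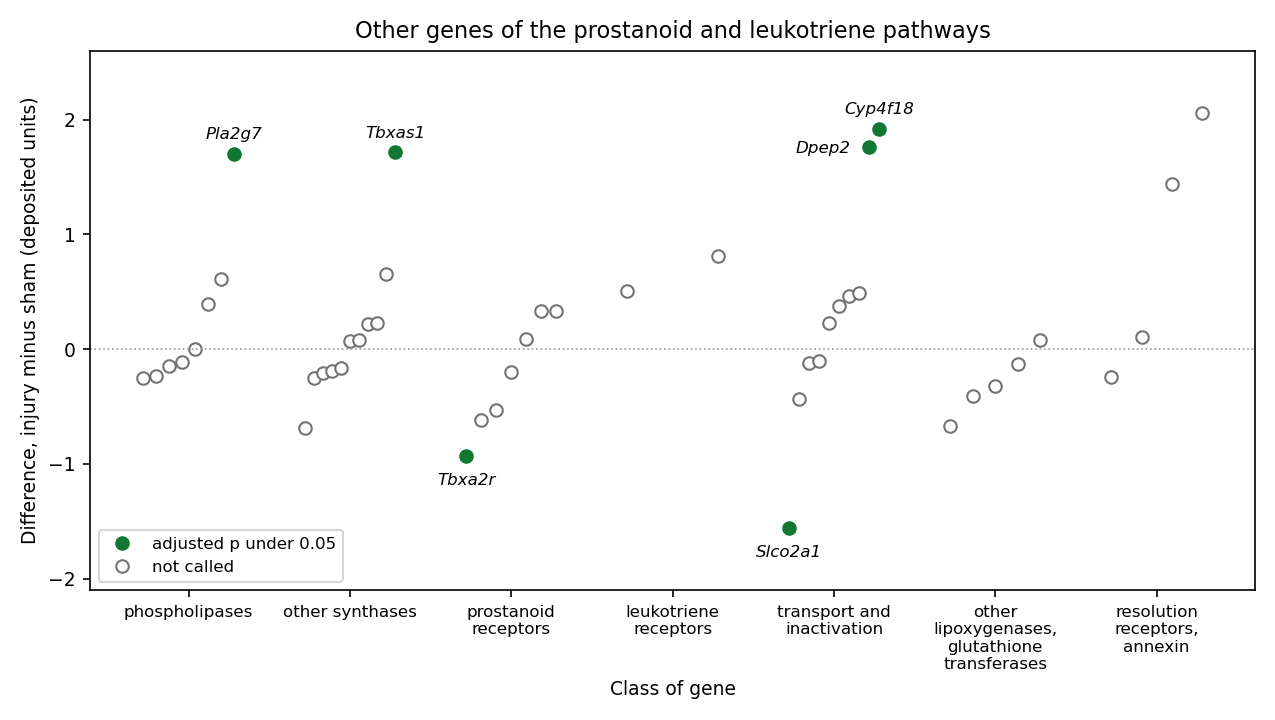
Difference between injury and sham (vertical axis, deposited units) of 47 other pathway genes, 1 symbol per gene, sorted within 7 classes. The 6 called genes are filled and named, *Pla2g7*, *Tbxas1*, *Cyp4f18* and *Dpep2* above 0 and *Slco2a1* and *Tbxa2r* below.

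In bulk tissue, fewer cells of a type and less RNA per cell cannot be told apart. Marker lists of cell types that the tissue could hold were read in the same libraries. All 10 macrophage markers were analysed and 7 were called higher, with list medians of -1.17 and -1.20 in the sham libraries and 0.37 and -0.14 in the injury libraries, beside which *Alox5ap* stood at -1.18, -1.26, 0.73 and 0.29. Of 7 neutrophil markers 2 were called higher and all 7 had both injury libraries above both sham libraries, with list medians of -1.34, -0.97, 1.22 and 0.18 in the same order. These medians, like the macrophage medians and *Alox5ap*, were highest in injury replicate 1 and next highest in injury replicate 2. *Ptgs2*, with -1.05, -0.16, 1.56 and -0.39, was likewise highest in injury replicate 1, but was below sham replicate 2 in injury replicate 2. Of 6 smooth muscle markers 4 were called lower, with medians of 1.73, 1.04, -1.47 and -0.19. Of 8 endothelial markers 3 were called lower (medians 0.82, 0.69, -0.16 and -0.07), and of 8 fibroblast markers 4 (0.27, -0.03, -0.75 and -0.54). The medians of these 3 lists ran in the same order over the libraries as *Ptgis* (1.77, 0.53, -0.93 and -0.02). *Ptgs1* (0.44, 0.89, -0.71 and -0.49) was also lower after injury, but its sham libraries stood in the opposite order to those of the 3 medians. The endothelial list was itself split in this order. *Cdh5*, *Tie1*, *Vwf* and *Emcn* were higher in sham replicate 2, as *Ptgs1* was, and *Pecam1*, *Kdr*, *Tek* and *Erg* were higher in sham replicate 1. None of 7 mast cell and none of 6 platelet and megakaryocyte markers was called by limma, with median differences of -0.34 and -0.11. An unadjusted p under 0.05 was reached by 1 and 2 of them, and by 3739 of all 12661 genes. The 6 platelet markers did not go one way: *Pf4* and *Ppbp*, genes of platelet chemokines, had differences of 1.25 and 0.91 with no overlap (adjusted p = 0.0544 and 0.0561 from limma), and the other 4 had differences between -0.48 and -0.03. Over all genes, 3.76% were called higher and 3.67% lower, and 31.6% had both injury libraries above both sham libraries. The part of these cell types in the differences of the enzymes was not tested. All 8 adipocyte markers of the list were analysed, among them *Adipoq* and *Plin1*, and 1 was called, lower after injury. How abundant they were cannot be read from these values.

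**Figure D5:**
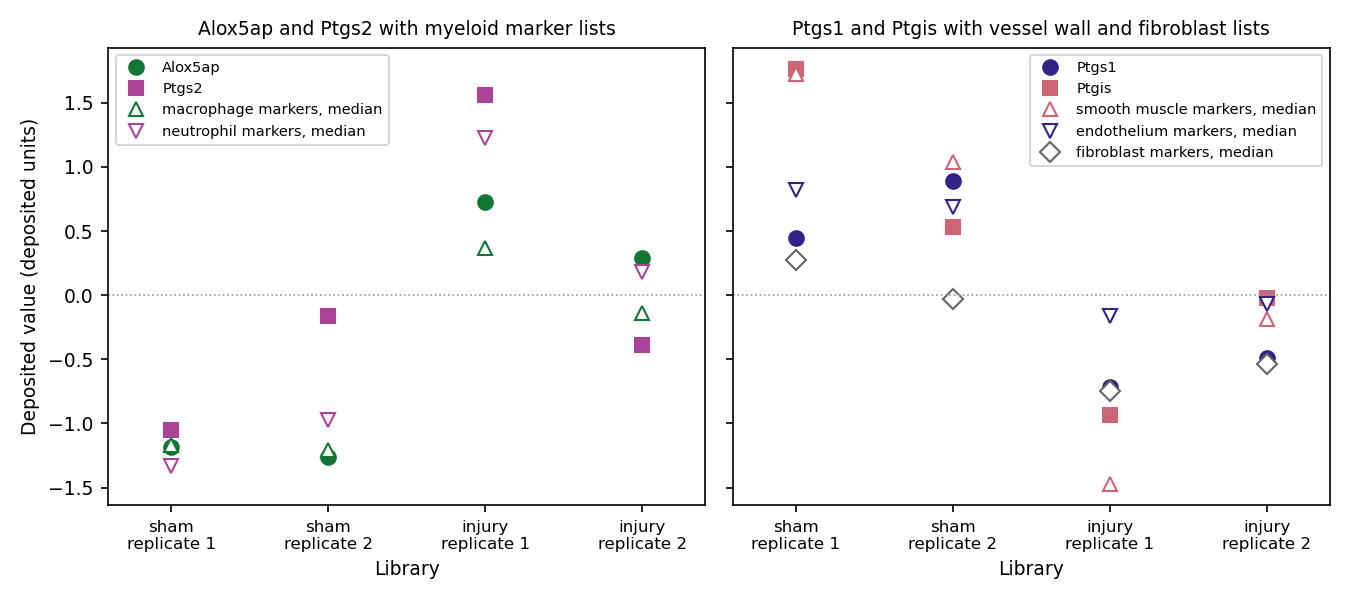
Deposited values (vertical axis, deposited units) of 4 of the genes (filled) and medians of cell type marker lists (open) in each of the 4 libraries. *Alox5ap* and the macrophage and neutrophil medians are all low in the sham libraries and higher after injury. *Ptgs1* and *Ptgis* and the smooth muscle, endothelial and fibroblast medians are lower after injury.

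The genes whose values lay nearest to those of the 2 called enzymes, by Euclidean distance over the 4 libraries and outside the lists above, were taken as a description. Nearest to *Ptgs1* were *Gria3* (distance 0.129), *Adgrg6* (0.149) and *St6galnac5* (0.174), a glutamate receptor subunit, an adhesion receptor and a sialyltransferase gene. Nearest to *Alox5ap* were *Cyth4* (0.159), *Pira1* (0.160) and 1600010M07Rik (0.176). *Pira1* belongs to a family of similar receptor genes, between which reads could have been split. With 4 libraries, many genes that differ between the groups lie close to each other by this measure.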

How the data were processed

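Bulk RNA-seq of 4 libraries was analysed. Reads were trimmed by the authors (Cutadapt 1.18, Trimmomatic 0.39) and aligned to mm9 (STAR 2.6.0a), and the submitters' processing notes also name featureCounts and DESeq2 1.28.0. The deposited values are scores, signed decimals from -2.27 to 6.45, and not counts. How the authors made them, their log base and the gene filter are not given in the sources used here, so depth is unknown and no filter on low values was possible. Groups followed the sample titles. Injury was compared with sham by limma 3.58.1 in R 4.3.3 (group as the only term, no trend, 3.48 prior degrees of freedom), tested on simulated data, with Benjamini-Hochberg adjustment over 12661 genes. An unadjusted p under 0.05 was reached by 3739 genes. An exact permutation test of 2 against 2 libraries cannot go below p = 0.333 and was not used.

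The genes and lists were chosen with earlier results of these data known. Named were all members, every called pathway gene, the gene of largest difference in each class, and the 3 nearest genes of each called member. *Pla2g4a*, *Hpgds*, *Ptgfrn*, *Ephx2*, *Adipoq*, *Plin1*, *Pf4*, *Ppbp* and the 8 endothelial markers were added after their values were seen. Gene positions were read from GENCODE on NCBIM37 (mm9). Alternatives were leaving out each library, a replicate block, quantile normalization, one spread for all columns, medians subtracted, a robust variance prior, array quality weights, identical rows counted once, a threshold of 0.1 and a minimum difference of 1 unit. Sequences and plots were handled in Python 3.11.15 with pandas 2.3.3 and matplotlib 3.10.9.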

Additional observations from a re-analysis of the deposited data

How the results depend on the processing

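Of 99 recomputed differences of the 9 genes, 85 kept their direction and their side of the threshold, 5 kept their direction and lost the call, 1 gained it and 8 reversed. The lost and gained calls all came from leaving out a library. Leaving out each library in turn gave -1.49 to -1.04 for *Ptgs1*, 0.22 to 2.17 for *Ptgs2*, -2.25 to -1.01 for *Ptgis*, -0.34 to -0.27 for *Lta4h*, 1.51 to 1.95 for *Alox5ap*, -0.11 to 0.20 for *Ptges*, -0.53 to 0.51 for *Alox5*, -0.11 to 0.41 for *Ltc4s* and -0.41 to 0.0553 for *Hpgd*, so that the last 4 have no settled direction. *Alox5* also turned to 0.024 after quantile normalization and to 0.0302 with columns scaled to one spread. The count of the 9 genes called was 2, with 0 to 3 when a library was left out. That of the 47 further pathway genes was 6, with 0 to 12 when a library was left out and 12 at a threshold of 0.1. Over all genes it was 941, with 0 to 1790 when a library was left out, 2317 at a threshold of 0.1 and 591 with a minimum difference of 1 unit. A fit to 3 libraries has 1 residual degree of freedom and takes the lone library to vary like the other group. With the replicate block 2 of the 9 genes, 5 of the 47 and 684 of all genes were called, and *Tbxa2r* lost its call (adjusted p = 0.0535 from limma). Same-numbered libraries did not deviate together (correlation over genes -0.09), and nothing in the labels pairs them. The alternatives that need counts or abundance could not be run.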
